A study of Homo sapiens with 30 samples.

Results

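The HOXD cluster is one of the human HOX gene clusters. Its 9 HOX genes and the neighbouring homeobox gene EVX2 were examined here, 10 of the 20037 protein-coding genes that RefSeq places on GRCh38.p14 (hg38). They were chosen by name. For each gene, peaks of the Polycomb proteins RING1 and RNF2 were taken over the gene body and 2 kb on either side, called the gene window below. The study profiled monolayers of neural progenitor cells derived from the established line H9, which is of human embryonic stem cells, by CUT&RUN, in which an antibody-tethered nuclease releases the DNA around a bound protein. The peak lists used here come from the cells labelled wild type, the unmutated arm of a CRISPR-edited RING1 and RNF2 allelic series, kept in medium with N2, B27 and FGF. There were 2 libraries for the RING1 antibody and 2 for the RNF2 antibody, each with its own list. The lists form set A and set B, each with 1 list per antibody, and the labels tie neither set to a replicate number. Libraries of the edited genotypes, of IgG and of H2AK119ub1 were not analysed here. Expression was not analysed here either, so the cell type label was not checked against markers.

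HOX genes encode homeodomain transcription factors that specify position along the body axis, and they lie in a row in the order in which they are used. In the HOXD cluster the anterior genes, HOXD1 to HOXD4, serve the hindbrain and neck, while the posterior genes, HOXD9 to HOXD13, serve the lower trunk, limbs and digits. Polycomb repressive complex 1 (PRC1) contains either RING1 or RNF2 as its ubiquitin ligase, marks histone H2A with H2AK119ub1 and keeps unused HOX genes silent.

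The whole HOXD cluster lay under Polycomb peaks. The span from 2 kb beyond EVX2 to 2 kb beyond HOXD1 (chromosome 2, 176075472 to 176192907, 117.4 kb) had no base without a peak in at least 1 list. RNF2 of set A covered 117.4 kb of it (100%) with 1 peak, and RNF2 of set B covered 102.4 kb (87.2%) with 4 peaks. RING1 of set A covered 108.1 kb (92.1%) with 4 peaks, and RING1 of set B covered 29.4 kb (25.1%) with 17 peaks. The RING1 list of set B is therefore the one that stands apart over the cluster. It is also the shortest list, with 659 peaks in all, against 12891 for RING1 of set A, 16263 for RNF2 of set A and 5901 for RNF2 of set B. With every list cut to its 659 most significant peaks, RING1 of set A covered 101.6 kb of the span and RNF2 of set B 102.4 kb. This cut keeps each peak at the width at which it was called. It therefore does not bear on why RING1 of set B covered less, which was not tested. Sequencing depth is unknown, so no base outside a peak can be read as free of the protein.

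**Figure D1:**
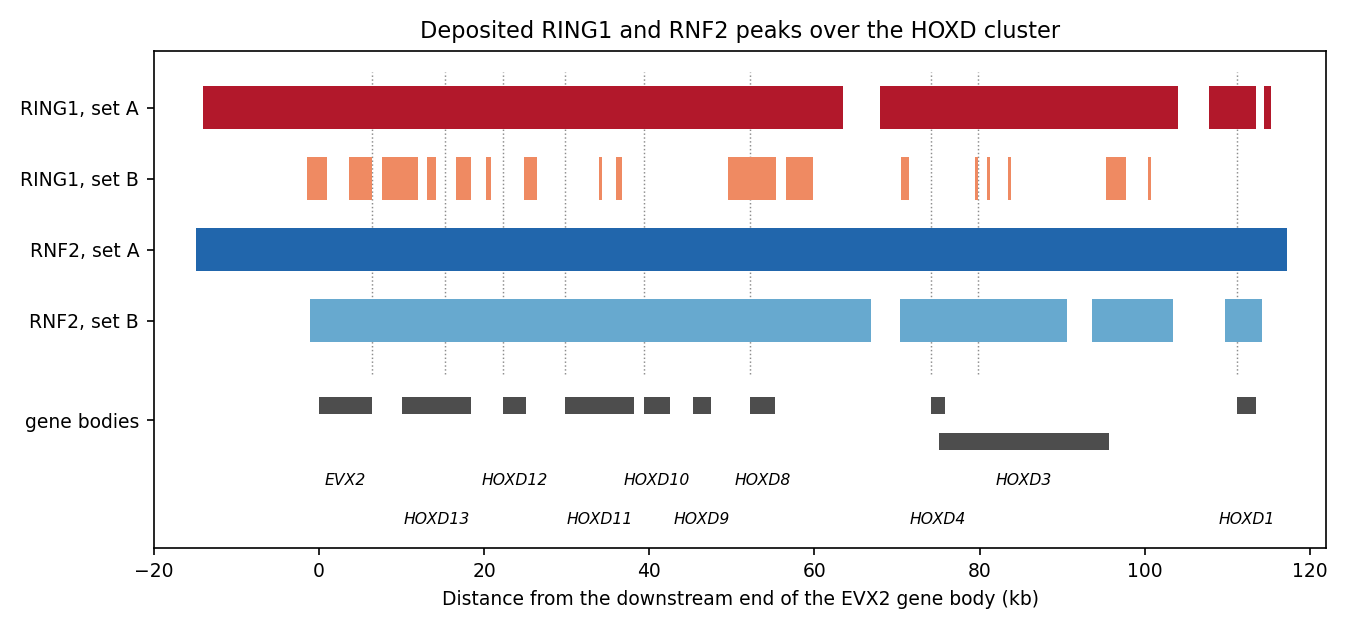
Peaks of each list (coloured blocks, 1 row per list) over the HOXD cluster, with gene bodies in grey, in kb from the downstream end of EVX2; dotted lines mark the annotated start sites of the 9 genes with a promoter entry. RNF2 of set A forms 1 block over all 10 genes, RING1 of set A and RNF2 of set B 4 blocks each, and RING1 of set B 17 short blocks.

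The widest HOXD peak of RING1 of set A and of each RNF2 list was among the widest peaks of its list. The RING1 peak over EVX2 to HOXD8 in set A ran for 77536 bp (176063408 to 176140943) and was the widest of all 12891 RING1 peaks. The RNF2 peak of set A ran for 132152 bp (176062587 to 176194738), rank 3 by width among 16263 peaks. The set B RNF2 peak over EVX2 to HOXD8 ran for 67971 bp (176076408 to 176144378), rank 2 among 5901. The wider RNF2 peaks lay at other HOX clusters, HOXC (149946 bp) and HOXA (136028 bp) in set A and HOXA (87103 bp) in set B. Median peak widths in these lists were 704 bp, 973 bp and 779 bp. The other HOXD peaks did not all stand out by width: 1 RING1 peak of set A measured 830 bp (rank 5461), and the 17 RING1 peaks of set B had a median of 1086 bp against 1320 bp for their list, at ranks 40 to 634 of 659. By the authors' fold enrichment over background, which ranks peaks within a list, the 3 wide HOXD peaks stood at rank 76 with 10.1, rank 67 with 14.5 and rank 54 with 7.81. Their width thus ranked higher than their fold.

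Both antibodies reached every HOXD gene in set A. RING1 of set A and both RNF2 lists had a peak at 10 of 10 genes, where the same rule called 50.5% of all protein-coding genes for RING1 of set A, 60.7% for RNF2 of set A and 25.2% for RNF2 of set B. RING1 of set B had a peak at 6 of 10, against 1.58% of all genes, and those 6 were the genes called in all 4 lists, against 1.52% of all genes. Since 1 peak can cover many neighbours, the genes are not separate observations: the 10 calls for RNF2 of set A rest on 1 peak. A window covered to at least 50% was seen at 10, 10 and 10 genes for RING1 of set A, RNF2 of set A and RNF2 of set B, and at 3 genes for RING1 of set B. The same rule called 1.55%, 2.31%, 1.23% and 0.200% of all genes. The 3 genes, EVX2, HOXD13 and HOXD8, passed it in all 4 lists, as did 0.190% of all genes. Windows covered over their full length numbered 9, 10, 7 and 0, where 0.624%, 0.923%, 0.544% and 0.00998% of all genes were covered in full. Among all protein-coding genes the median covered share was 0.0799% for RING1 of set A, 0.924% for RNF2 of set A and 0% for both lists of set B. The HOXD medians were 100% for RING1 of set A and both RNF2 lists and 10.9% for RING1 of set B.

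**Figure D2:**
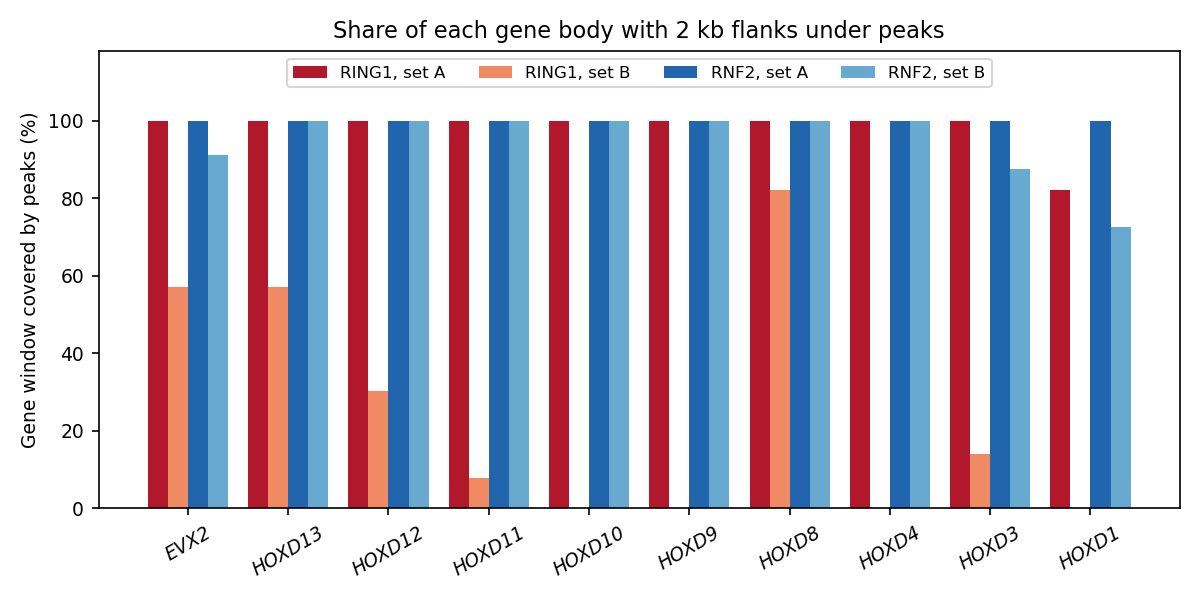
Share of each gene window covered by peaks (percent, vertical axis) for the 10 genes in their order along the chromosome, 1 bar per list. RING1 of set A and both RNF2 lists reach 72.5% or more at every gene, while RING1 of set B ranges from 0% to 82.1%.

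EVX2 and HOXD13, at the posterior end of the cluster, had more than 50% of their windows under peaks of both proteins in all 4 lists. EVX2 (176077472 to 176083962, on the minus strand), an even-skipped type homeobox gene, had its window covered to 100% by RING1 of set A, 57.0% by RING1 of set B, 100% by RNF2 of set A and 91.1% by RNF2 of set B. HOXD13 (176087487 to 176095944), the digit patterning gene mutated in synpolydactyly, was covered to 100%, 57.1%, 100% and 100% in the same order. HOXD13 held 4 RING1 peaks of set B and EVX2 3, 1 of which they share. The annotated HOXD13 body begins well before its promoter entry's start site at 176092721. The set B RING1 peaks at 176085096 to 176089413 and at 176090514 to 176091599 both lie before that start site. The 57.1% at HOXD13 thus rests in part on the annotated extent of the body. HOXD12 (176099795 to 176102489), its limb-expressed neighbour, was fully covered in 3 lists and to 30.2% by RING1 of set B. HOXD11 (176107280 to 176115679), a gene of forearm and kidney patterning, was also fully covered in 3 lists, with 7.86% under RING1 of set B. The 2 RING1 peaks of set B at HOXD11 were short. One of them, 311 bp wide (176111381 to 176111691), had the highest fold of any set B RING1 peak in the cluster, 5.51, at rank 41 of 659 by fold and rank 16 by significance.

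HOXD10 and HOXD9 lay in the longest stretch between 2 RING1 peaks of set B. HOXD10 (176116778 to 176119937), which patterns lumbar motor neurons, and HOXD9 (176122719 to 176124937) had windows covered to 100% by RING1 of set A and by RNF2 in both sets, and to 0% by RING1 of set B. The uncovered stretch ran for 12843 bp (176114134 to 176126976) and held both gene bodies whole. HOXD8 (176129705 to 176132695) lay just beyond it and had the highest set B RING1 coverage of the cluster, 82.1% of its window, with the gene body inside 1 peak of 5813 bp (176126977 to 176132789; fold 5.08). That peak was the widest of the 17, at rank 40 of 659. Ranked from the highest covered share down, the genes with RING1 in set B were HOXD8, HOXD13, EVX2, HOXD12, HOXD3 and HOXD11. HOXD10, HOXD9, HOXD4 and HOXD1 were at 0%. This ranking is not the order of the genes along the chromosome. With 1 list no error can be given for this order, and HOXD13 and EVX2 stood at nearly the same share.

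Coverage of the anterior genes differed from gene to gene. HOXD4 (176151550 to 176153226), a hindbrain and neck gene, had full coverage by RING1 of set A and both RNF2 lists and no RING1 peak in set B. HOXD3 (176152529 to 176173098), whose annotated body overlaps that of HOXD4, was covered to 100% by RING1 and RNF2 of set A, to 87.4% by RNF2 of set B and to 14.0% by RING1 of set B. Its 4 RING1 peaks of set B included 1 of 2474 bp at the downstream end (176172716 to 176175189; fold 5.34). HOXD1 (176188668 to 176190907), the most anterior gene of the cluster, was covered to 82.1% by RING1 of set A, 0% by RING1 of set B, 100% by RNF2 of set A and 72.5% by RNF2 of set B. It was the gene with the lowest coverage in RING1 of set A and RNF2 of set B. From EVX2 to HOXD8 (59.2 kb), RING1 covered 100% and 37.0% in sets A and B, and RNF2 covered 100% and 98.4%. From HOXD4 to HOXD1 (43.4 kb) RING1 covered 88.7% and 8.91% and RNF2 100% and 75.5%. In RING1 of both sets and RNF2 of set B the anterior stretch, which includes the DNA between its genes, was thus covered less, and in RNF2 of set A 1 peak covered both stretches. The DNA between HOXD8 and HOXD4 belongs to neither stretch, though RING1 of set A left 4411 bp uncovered there and RNF2 of set B 3510 bp. In RING1 of set A all gene bodies were covered to 100%, so its shortfall lay outside them. The comparison depends on where the stretches end and was not tested.

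Among the peaks that overlap a gene body, the peak at HOXD1 had the lowest fold in RING1 of set A and in RNF2 of set B. In RING1 of set A the peak over EVX2 to HOXD8 had a fold of 10.1, the peak over HOXD4 and HOXD3 8.05 and the peak over HOXD1 5.97. For RNF2 of set B the corresponding values were 7.81, 5.95 and 4.88, with a further peak of 6.72 at the downstream end of HOXD3. The median fold of all peaks in these 2 lists was 3.99 and 3.69. In RING1 of set B the folds of the 17 peaks ran from 3.93 to 5.51 around a list median of 4.49 and followed no such order. At a −log10 q of at least 5, where 8.74%, 0.0349%, 17.1% and 2.70% of all genes keep a peak in RING1 of sets A and B and RNF2 of sets A and B, 10, 0, 10 and 9 of the 10 genes kept one. HOXD1 was the gene lost from RNF2 of set B.

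**Figure D3:**
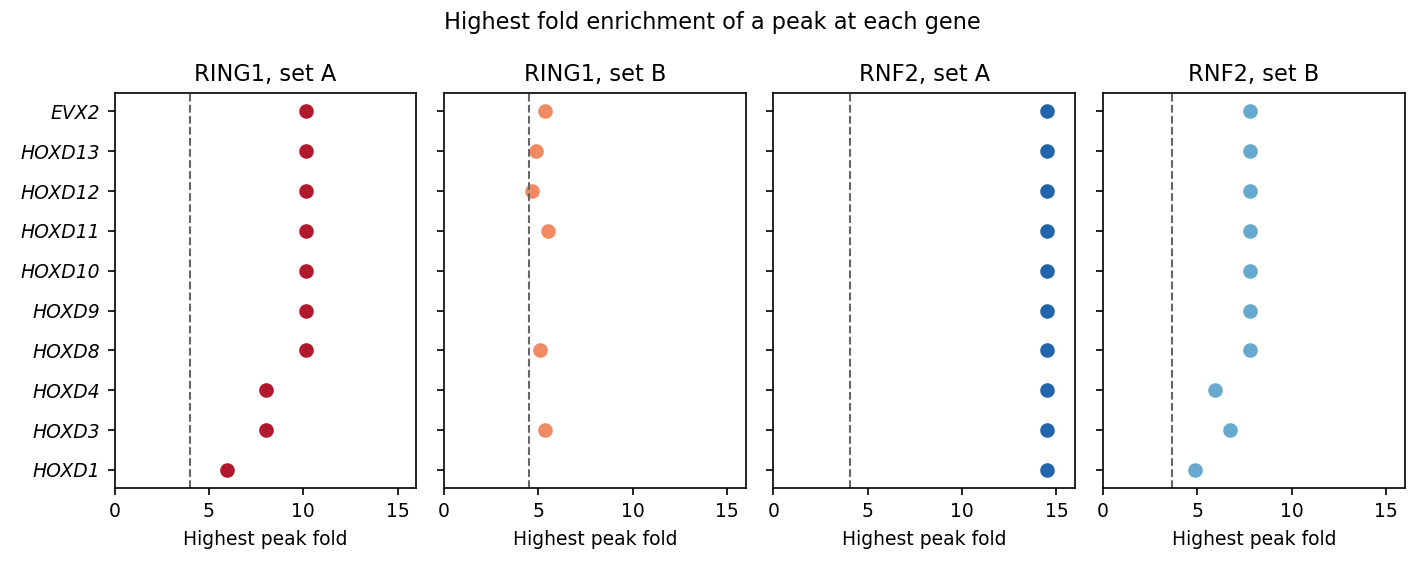
Highest fold enrichment of a peak at each gene window (horizontal axis, the authors' ratio over background), 1 panel per list; dashed lines mark the median of all peaks in the list. In RING1 of set A and RNF2 of set B the values are highest at EVX2 to HOXD8 (10.1 and 7.81) and lowest at HOXD1 (5.97 and 4.88), HOXD3 (6.72) lies above HOXD4 (5.95) in RNF2 of set B, and genes under 1 peak share its value.

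Start sites separated the lists further. RefSeq gave a promoter entry for 9 of the 10 genes, all but HOXD9. All 9 start sites lay inside a peak of RING1 of set A and of both RNF2 lists, where 35.6%, 49.6% and 14.6% of the 15843 protein-coding genes with an entry had a start site inside a peak of RING1 of set A, RNF2 of set A and RNF2 of set B. In RING1 of set B 1 of the 9, that of HOXD8, lay inside a peak, against 0.499% of genes. Among all genes with a set B RING1 peak in their window and a promoter entry, the start site lay inside a peak in 79 of 237 (33.3%). The like count in the cluster is 1 of the 6 genes with such a peak. The set B RING1 peaks came close to 2 further start sites, 81 bp away at HOXD3 and 91 bp at EVX2. The distance was 1122 bp at HOXD13, 1481 bp at HOXD12, 2610 bp at HOXD4, 2645 bp at HOXD10, 3427 bp at HOXD11 and 10425 bp at HOXD1. Gene bodies of the cluster and the DNA between them were covered to a similar degree by RING1 of set B, 24.1% of 58.2 kb and 25.3% of 55.2 kb. In RING1 of set A the bodies were covered to 100% and the DNA between them to 85.2%, and in RNF2 of set B to 94.7% and 82.2%.

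**Figure D4:**
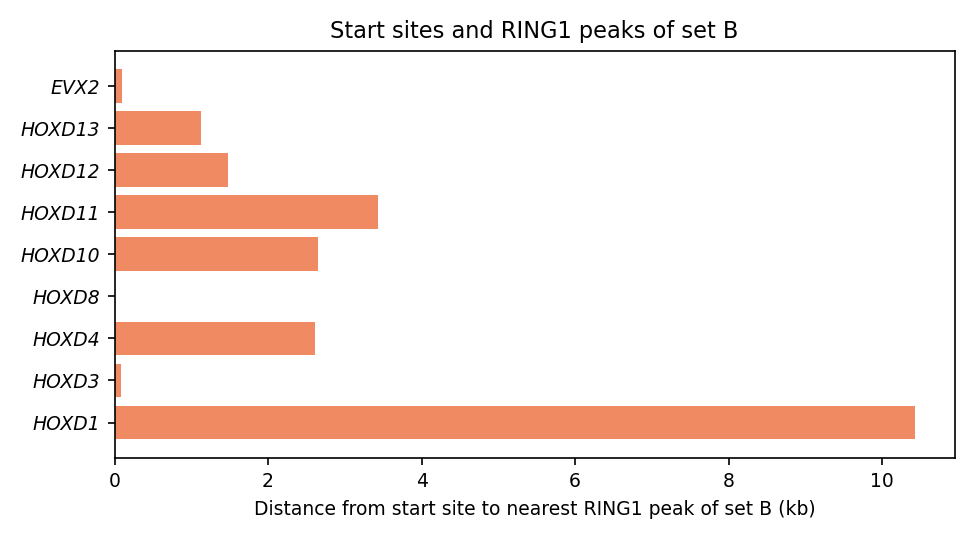
Distance in kb from the annotated start site of each gene to the nearest RING1 peak of set B; HOXD9 has no promoter entry and is not drawn. HOXD8 is at 0 because its start site lies inside a peak, EVX2 and HOXD3 lie within 91 bp of one, and HOXD1 is 10425 bp away.

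The promoters of the cluster differ in CpG content. As background, variant forms of PRC1 reach unmethylated CpG-rich DNA through a CpG-binding subunit. The 250 bases before the start site are shown for 4 genes, from RefSeq on GRCh38.p14, 5′ to 3′ on the plus strand, with every CpG in capitals. HOXD13 (chr2:176092471-176092720) lay between 2 RING1 peaks of set B, HOXD8 (chr2:176129455-176129704) inside one, HOXD3 (chr2:176157057-176157306) at the edge of one, and HOXD1 (chr2:176188418-176188667) far from any; HOXD8 was added after its values were seen.
HOXD13: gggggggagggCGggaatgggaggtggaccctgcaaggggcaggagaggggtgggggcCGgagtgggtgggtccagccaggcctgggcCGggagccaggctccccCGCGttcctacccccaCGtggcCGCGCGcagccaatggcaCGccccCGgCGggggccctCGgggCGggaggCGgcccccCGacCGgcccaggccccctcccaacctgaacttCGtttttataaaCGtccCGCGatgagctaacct
HOXD8: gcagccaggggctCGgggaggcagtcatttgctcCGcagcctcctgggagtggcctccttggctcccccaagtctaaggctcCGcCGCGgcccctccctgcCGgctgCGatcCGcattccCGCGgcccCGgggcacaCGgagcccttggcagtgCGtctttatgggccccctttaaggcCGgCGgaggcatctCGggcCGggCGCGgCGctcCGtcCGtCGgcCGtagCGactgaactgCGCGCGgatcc
HOXD3: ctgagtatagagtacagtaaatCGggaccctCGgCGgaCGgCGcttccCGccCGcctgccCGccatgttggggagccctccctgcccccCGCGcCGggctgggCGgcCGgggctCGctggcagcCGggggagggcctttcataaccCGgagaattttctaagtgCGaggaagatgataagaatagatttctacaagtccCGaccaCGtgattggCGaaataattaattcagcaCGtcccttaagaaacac
HOXD1: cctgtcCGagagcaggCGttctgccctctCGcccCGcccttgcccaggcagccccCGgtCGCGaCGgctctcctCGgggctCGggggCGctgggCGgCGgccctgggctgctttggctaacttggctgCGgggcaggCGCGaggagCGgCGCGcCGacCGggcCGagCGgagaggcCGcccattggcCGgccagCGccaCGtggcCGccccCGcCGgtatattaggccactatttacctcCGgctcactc
These stretches hold 21, 28, 21 and 31 CpGs. Across the 35116 promoter entries of RefSeq the median is 11 CpGs per 250 bases, with quartiles of 3 and 23. In the other genes of the cluster EVX2 had 14, HOXD12 16, HOXD11 and HOXD10 23 each, and HOXD4 4. The 9 promoters had a median of 21 CpGs. HOXD4, with the fewest, and HOXD1, with the most, both lay outside the RING1 peaks of set B and inside the peaks of the other 3 lists. The CpG numbers are of 250 bases, while the covered shares are of whole gene windows. A link between CpG number and RING1 coverage was not tested.

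Motifs of factors that belong to the PRC1.6 form of the complex were counted in the same stretches on both strands. GCGGGAA, an E2F6-type site, occurred in HOXD13, HOXD8 and HOXD3, 33.3% of the 9, and in 5.52% of all entries. CACGTG, the E-box bound by MGA with MAX, occurred in HOXD13, HOXD11, HOXD10, HOXD3 and HOXD1, 55.6% of the 9, and in 6.34% of all entries. Both motifs contain the CpG counted above, of which the 9 promoters hold a median of 21 against 11 in all entries. No background of like CpG content was counted, so these shares are not a measure of enrichment. A match is a description of the sequence, not of binding.

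The RING1 peaks of the cluster overlapped RNF2 peaks of their own set. All 4 RING1 peaks of set A lay wholly within the RNF2 peak of set A inside the span, and all 17 RING1 peaks of set B met an RNF2 peak of set B, with 16 wholly inside. RNF2 of set A covers the whole span and RNF2 of set B 87.2% of it, so in set A this is fixed by the RNF2 peak. Genome-wide, 82.1% of the RING1 peaks of set A and 90.6% of those of set B met an RNF2 peak of their set, and 45.9% and 84.1% lay wholly inside. The 17 RING1 peaks of set B also lay wholly within RING1 peaks of set A. In bases, 98.7% of set B RING1 was shared with set B RNF2, and 28.4% of set B RNF2 with set B RING1. Counted per base, 24.7% of the span was called in all 4 lists, 59.2% in 3, 11.7% in 2 and 4.34% in 1. Over the span RNF2 covered more than RING1 in both sets, by 9.29 kb in set A and 72.9 kb in set B. The means were 109.9 ± 10.7 kb for RNF2 and 68.8 ± 55.7 kb for RING1 (SD, n = 2), a difference of 41.1 kb. An exact permutation test over the 4 lists, two-sided, gave p = 0.667, where 0.333 is the smallest p that 2 lists against 2 allow, and the difference was smaller than the spread between the RING1 lists. The mean of the peak folds, weighted by the bases each peak covers, was 9.17 and 4.86 for RING1 of sets A and B and 14.5 and 7.21 for RNF2. The 14.5 is the fold of 1 peak. Folds rank peaks within a list, so these values do not compare the lists.

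The gaps in coverage fell at like places in separate lists. Between HOXD8 and HOXD4, RING1 of set A left 4411 bp uncovered (176140944 to 176145354) and RNF2 of set B 3510 bp (176144379 to 176147888). Between HOXD3 and HOXD1, RING1 of set A left 3762 bp (176181465 to 176185226) and RNF2 of set B 6348 bp (176180842 to 176187189). Stretches of at least 500 bp covered by RNF2 of set A alone were found at these 2 places and nowhere else in the span. The stretch between HOXD8 and HOXD4 measured 976 bp (176144379 to 176145354) and overlapped no annotated gene. The stretch of 3762 bp lay within HAGLR, a long noncoding RNA gene transcribed against HOXD1. RNF2 of set B had a further gap of 3085 bp inside HOXD3 (176168048 to 176171132), which RING1 of set A covered.

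Noncoding genes of the cluster followed their surroundings. HOXD-AS2, an antisense gene beside HOXD8, and LOC100129455, which overlaps HOXD8, were covered to 100% in all 4 lists. LOC401021 was covered to 100% in 3 lists and to 19.0% by RING1 of set B. MIR10B, the microRNA gene upstream of HOXD4, lay inside peaks of RING1 of set A and both RNF2 lists and outside those of RING1 of set B, as did MIR7704 at HOXD1. HAGLR was covered to 76.1% by RING1 of set A, 14.9% by RING1 of set B, 100% by RNF2 of set A and 59.7% by RNF2 of set B. HAGLROS, the short gene on its opposite strand, was covered to 100%, 9.24%, 100% and 100%.

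The outermost edges of the peaks that meet the span differed between lists. On the EVX2 side the outermost RING1 edge lay 14064 bp beyond the gene body in set A, against 1449 bp in set B. The RNF2 edge lay 14885 bp beyond it in set A, against 1064 bp in set B. On the HOXD1 side it lay 1839 bp beyond the gene body for RING1 of set A, 3831 bp for RNF2 of set A and 806 bp for RNF2 of set B. RING1 of set B ended 10425 bp before the HOXD1 start site. The RNF2 edges of both sets thus lay closer together on the HOXD1 side. The next peak beyond the EVX2-side edge came after 60.5 kb for RING1 of set A, 1731 kb for RING1 of set B, 1.06 kb for RNF2 of set A and 43.6 kb for RNF2 of set B. On the HOXD1 side it came after 76.6 kb, 456.8 kb, 74.1 kb and 178.6 kb in the same order. Within 500 kb beyond the span, the covered share on the EVX2 side was 2.78% for RING1 of set A, 3.23% for RNF2 of set A and 0.0884% for RNF2 of set B, with no set B RING1 peak. On the HOXD1 side it was 2.73%, 5.97%, 1.53% and 0.750% for RING1 of set A, RNF2 of set A, RNF2 of set B and RING1 of set B.

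The nearest protein-coding neighbours carried short peaks in set A only. LNPK (175923882 to 176002820), which encodes a protein of the endoplasmic reticulum, lies on the EVX2 side. Its window had 1 RING1 peak with a fold of 4.38 and 1 RNF2 peak with a fold of 5.69, covering 1574 bp and 1523 bp. MTX2 (176269442 to 176338025), which encodes a mitochondrial import protein, lies on the HOXD1 side and had 1 RING1 peak (3.90) and 2 RNF2 peaks (highest 6.25), covering 612 bp and 1651 bp. Neither gene had a peak of either antibody in set B.

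The other HOX clusters showed the same broad RNF2 coverage, and RING1 of set B covered a smaller share of each of them than the other lists did. RNF2 covered 97.4% and 83.4% of the HOXA span with EVX1 in sets A and B, 100% and 83.3% of HOXB1 to HOXB9, and 100% and 89.2% of HOXC. RING1 of set A covered 89.6%, 82.7% and 93.0% of these spans. RING1 of set B covered 13.9%, 5.47% and 3.57%, against 25.1% of HOXD. With HOXB13, which lies apart from its cluster, the HOXB span was covered to 55.2% and 4.27% by RING1 and 73.8% and 52.7% by RNF2 of sets A and B. The HOXD value was the highest of the 4 clusters in RING1 of set B, but with 1 list there is no error, and the difference between clusters was not tested.

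**Figure D5:**
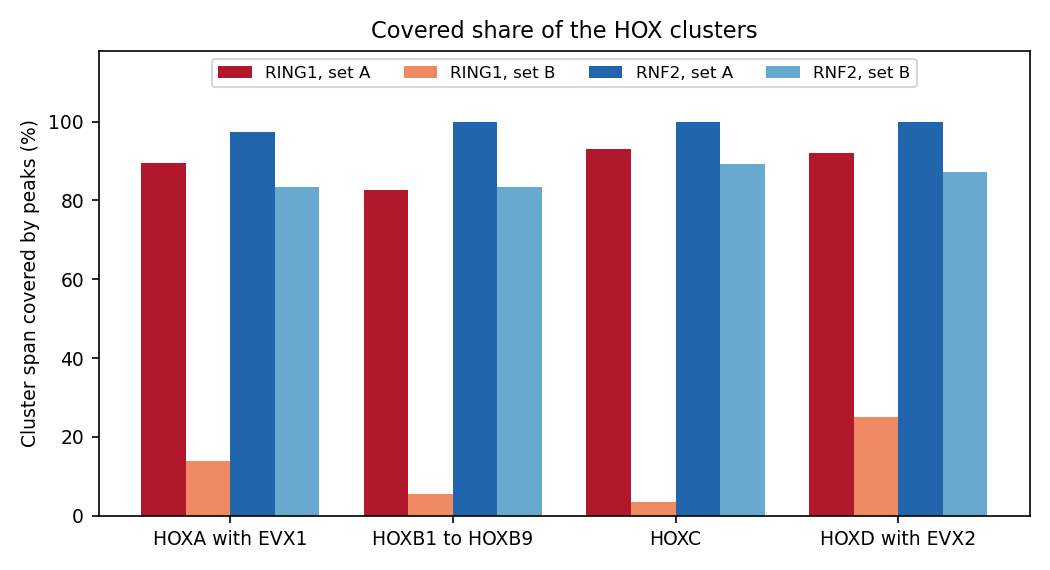
Share of each HOX cluster span covered by peaks (percent, vertical axis), 1 bar per list. In RING1 of set B the bars stand at 13.9%, 5.47%, 3.57% and 25.1% for HOXA, HOXB1 to HOXB9, HOXC and HOXD, and in the other 3 lists all bars lie at 82.7% or more.

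Gene by gene, the 31 genes of the HOXA, HOXB and HOXC clusters with EVX1 had a peak at 31 in RING1 of set A and both RNF2 lists and at 17 in RING1 of set B. Coverage of at least 50% was reached by 1 of these 31 and by 3 of the 10 HOXD genes in RING1 of set B. Among the posterior paralogs, RING1 of set B covered 34.6% of HOXA13, 7.04% of HOXB13 and 0% of HOXC13, against 57.1% of HOXD13. The HOXD13 share depends in part on an annotated body that begins before the start site. EVX1, the partner of EVX2 at the HOXA cluster, had 0% where EVX2 had 57.0%. For HOXD8 at 82.1% the paralogs HOXB8 and HOXC8 stood at 24.5% and 0%. Some other paralogs went the opposite way. HOXA9 had 40.1% and HOXA10 25.7% against 0% at HOXD9 and HOXD10, but HOXB9, HOXC9 and HOXC10 were at 0% as well. HOXB4 had 19.8%, HOXA4 5.10% and HOXC4 4.68% against 0% at HOXD4. The anterior paralog HOXB1 was at 0% like HOXD1. RING1 of set A covered 18.4% of HOXB1 and RNF2 of set B 5.32%, against 82.1% and 72.5% of HOXD1.

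HOX cofactor genes were covered to smaller shares of their windows. The 9 genes of the MEIS, PBX and PKNOX families, whose homeodomain proteins bind DNA together with HOX proteins, had a peak at 7 genes for RING1 and 7 for RNF2 in set A, and at 1 and 5 in set B. None was covered to 50%. MEIS1 reached 10.7% for RING1 of set A and 16.5% and 14.0% for RNF2 of sets A and B, and MEIS2 was the gene with RING1 in set B, at 0.909%. PBX2 had no peak in any list.

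Outside the HOX clusters' own genes, 5 genes had covered shares nearest to the HOXD median profile, by Euclidean distance over the 4 lists. They were PRAC1, which lies inside the HOXB span, POU4F2, a retinal ganglion cell factor gene, CDX2, a caudal homeobox gene, SP5, a zinc finger factor gene, and MNX1, a motor neuron homeobox gene. Their distances were 0.486, 2.31, 2.88, 5.02 and 6.90 percentage points. Their RING1 coverage in set B was 11.4%, 13.2%, 8.03%, 7.22% and 9.33%, against the HOXD median of 10.9%. The HOXD genes themselves lay 3.05 (HOXD11) to 71.2 (HOXD8) percentage points from that median, with HOXD11 the nearest of the 10.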

How the data were processed

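The 4 wild-type RING1 and RNF2 lists hold peaks in the broad peak format, with peak names in the style of MACS2 per the file headers and names. The submitters' processing notes list build hg38 and, with no roles, MACS2 2.2.9.1, deepTools 3.5.2, BWA 0.7.17, Picard 2.8.1, SAMtools 1.9 and bedtools 2.30.0; the sources used here do not state the control. The fold of a peak is the deposited ratio over background and its significance the deposited −log10 of the q-value, both from the authors' peak caller. Peaks were taken as called per list. The deposited consolidated file holds positions only.

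Only chromosomes 1 to 22, X and Y were used, 1 shared bp counted as overlap, and every count was made over 20037 protein-coding genes. Gene positions came from RefSeq; gene ends include predicted transcripts. The 10 genes, lists and motifs were chosen with earlier results of these data known. Named genes were the 10 members, their nearest protein-coding neighbours, noncoding genes of the span, the other HOX genes, 9 cofactor genes and the 5 genes of most alike coverage; promoters of HOXD13, HOXD3 and HOXD1 were planned, and so was that of HOXD9. The labels do not say whether replicates were separate cultures. Depth is unknown, so no interval was computed. The coverage step was tested on 2000 simulated windows and recovered 2000. Python 3.11.15, numpy 2.4.6, pandas 2.3.3 and matplotlib 3.10.9 were used.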

Additional observations from a re-analysis of the deposited data

How the results depend on the processing

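The counts for RING1 of set A and both RNF2 lists stayed between 9 and 10 under every alternative tried: no flanks, flanks of 1 kb or 5 kb, gene ends only, 50% coverage, each list cut to its 659 most significant peaks, a −log10 q of at least 5, and a promoter window of 300 bases, chosen after seeing the data and open to 9 genes only. HOXD1 was the gene lost, from RING1 of set A in lists of equal length and from RNF2 of set B at the stricter q. RING1 of set B, and with it the count in all 4 lists, depended on the rule. Both counts were 6 in the main analysis, 0 at a −log10 q of at least 5, 3 at 50% coverage, 2 with promoter windows and 9 with flanks of 5 kb. The covered length for RING1 of set B was 0 kb at a −log10 q of at least 5. Leaving out 1 set at a time gave 6 genes without set A and 10 without set B for the count in all lists, and 72.9 kb and 9.29 kb for RNF2 minus RING1. That difference kept its sign under every alternative. With both sets kept it ran from 40.6 kb with peaks within 1 kb joined to 54.0 kb at the stricter q. Cluster spans without flanks or with flanks of 10 kb changed no covered length beyond 1.5 times. A single-gene fold was counted only where the gene kept a peak. Every fold of RING1 of set B at the stricter q is thus left out, as are those of HOXD1 where it was lost. Of 448 single-gene coverages and folds under alternatives, 423 were unchanged or stayed within 1.5 times the main value and within the spread between sets, and 14 of the other 25 were of RING1 of set B. These values are not separate checks, since genes under 1 peak share its fold and full coverage cannot rise. None of the 120 values of RNF2 of set A moved, and all rest on 1 peak. The cut to 659 peaks leaves the RING1 list of set B as it is. RING1 coverage of HOXD12 in set B went from 30.2% to 5.08% with gene bodies only and to 0% at the stricter q. A replicate block by set, which pairs the RING1 and the RNF2 list of 1 set and was chosen after seeing the data, left the difference at 41.1 kb with an exact paired sign-flip p of 0.5 (two-sided), the smallest that 2 pairs allow. With 1 list per antibody and set and no read counts, the depth behind the RING1 peaks of set B is unknown.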

Other observations

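The deposited consolidated file, which names neither antibody nor genotype, held 1 region over the HOXD cluster. It was 132153 bp wide (176062586 to 176194738), rank 3 by width among 4255 regions whose median width was 2100 bp. Its start lay 1 base before that of the RNF2 peak of set A, and both had the same end. The gaps that RING1 of set A and RNF2 of set B left between HOXD8 and HOXD4 and between HOXD3 and HOXD1 do not appear in it.

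The cluster held 17 of the 659 RING1 peaks of set B (2.58%), as did the HOXA span with EVX1, against 9 for HOXC and 6 for HOXB with HOXB13. The HOXD peaks were wider, with a median of 1086 bp and a covered length of 29.4 kb, against 886 bp and 22.0 kb at HOXA. The widest measured 5813 bp at HOXD8 and 4037 bp at HOXA. No test was made of these differences.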
